A study of Sus scrofa with 32 samples.

Results

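Genes that build the junctions between neighbouring cells were followed through 4 compartments of the pig endometrium. The 49 genes encode proteins of tight, adherens, desmosomal and gap junctions, together with the adhesion protein EPCAM and a pair of membrane proteases, and were chosen by name. All 49 were found by pig gene symbol among the 30185 NCBI genes of the count tables. Endometrium was collected on Day 14 from 8 gilts, 4 cyclic and 4 pregnant. The sample labels count this day from ovulation, and the methods of the study count it from insemination. Stroma (S), blood vessels (BV) and the luminal (LE) and glandular (GE) epithelia were cut out by laser capture microdissection and sequenced as 31 RNA libraries, 1 per gilt and compartment, except that GE of the pregnant gilt 41 was not analysed here. Libraries are named by their labels, in which C or P stands for a cyclic or pregnant gilt, L, G, B or S for the compartment, and the number for the gilt. All 8 gilts were prepuberal and had their ovulation synchronized with equine and then human chorionic gonadotropin. Pregnant gilts (in LE, libraries PL139, PL39, PL41 and PL43) were inseminated with semen of a German Landrace boar, and cyclic gilts, labelled nonpregnant (CL128, CL40, CL42 and CL78), received only the supernatant of that semen, so that both groups share the hormone treatment and the exposure to seminal fluid. Group sizes were therefore 4 cyclic and 4 pregnant gilts in LE, BV and S, and 4 and 3 in GE.

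Tight junctions seal the space between epithelial cells near their apical side and consist of claudins, occludin-like proteins and junctional adhesion molecules held by cytoplasmic scaffolds such as TJP1 (ZO-1) and cingulin. Adherens junctions join cells through cadherins and nectins that bind catenins and afadin, and desmosomes anchor keratin filaments through desmogleins, desmocollins, plakophilins and desmoplakin. In the pig the conceptus does not invade but attaches to LE around this day, and the uterine epithelium remains as a layer between mother and conceptus.

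The libraries held between 2415216 and 7081556 counts (median 3624021). Levels are given as CPM, in which each library's reads are brought to 1 common total and then adjusted by TMM over all 31 libraries, with SD over gilts, and levels of different genes are compared only per kilobase of exon. Of the 49 genes, 41 passed the authors' CPM filter in LE, 39 in GE, 34 in S and 31 in BV and are called detectable there, 27 passed in all 4 compartments and 45 in at least 1. The 4 that passed in none were CLDN23, NECTIN1, DSC3 and GJB2. DSC3 and GJB2 were at or below 0.0427 CPM in GE and at 0 in the other compartments. The precision at the low end is set by depth: 3 counts over a whole group correspond to 0.173 to 0.279 CPM, and this floor covers counting error only. Library CG128, GE of a cyclic gilt, stood apart from the other GE libraries. It was the lowest of the 7 GE libraries in 16 of the 39 detectable junction genes, and 5 of them (CLDN4, CLDN8, CGNL1, JUP and TMPRSS2) lay more than 2 times below the lowest other library. Values without it are given where they matter. The reads of JAM3, CRB3 and CDH2 may be shared with a gene on the opposite strand whose exons overlap theirs, since the strand setting of the counting is not given in the sources used here.

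**Figure D1:**
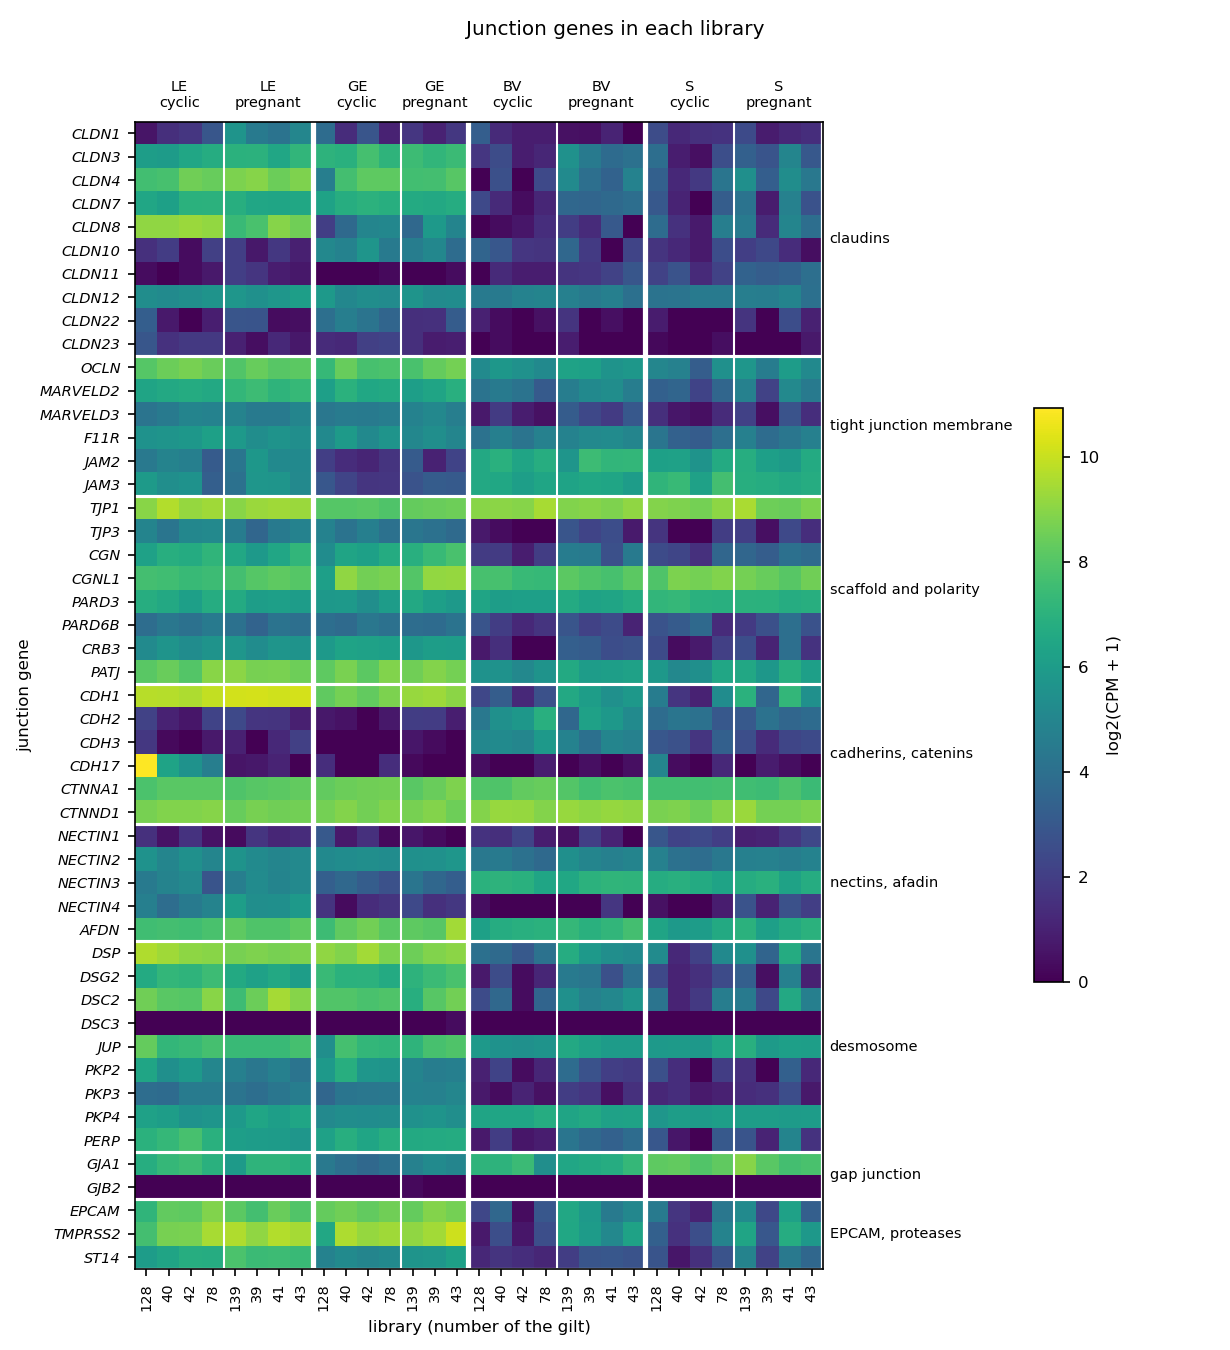
Level of each of the 49 junction genes in the 31 libraries as log2(CPM + 1), with genes in rows ordered by junction type and libraries in columns ordered by compartment and pregnancy state. CLDN3, CLDN4, CLDN7, CGN, CRB3, CDH1, DSP, DSG2, DSC2 and PERP are high across the LE and GE columns and low in BV and S, TJP1, CGNL1, PARD3 and CTNND1 are present throughout, and CDH2, CDH3, JAM2, JAM3, NECTIN3 and CLDN11 are higher in BV and S than in the epithelia.

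Most of these genes had higher levels in the epithelia than in S. Compared with S in the joint fit of all 31 libraries with the gilt as a block (edgeR quasi-likelihood test, false discovery rate of 1%), 32 of the 45 tested were higher in LE and 8 lower, where 50.6% of all 13887 genes differed (26.7% higher and 23.9% lower). In GE, 29 were higher and 10 lower than in S, against a background of 59.3% called (27.9% higher and 31.4% lower). Of the 45, 10 (CLDN1, CLDN10, CLDN22, MARVELD3, TJP3, CRB3, CDH17, NECTIN4, PKP2 and PKP3) passed the CPM filter in LE or GE but in neither BV nor S, and 3 (CLDN11, CDH2 and CDH3) the other way round, so that the filter itself favours a difference in that direction. The median difference of the 45 genes was 2.52 on the log2 scale in LE and 1.88 in GE, whereas the medians of all genes were 0.04 and -0.03. A set of 27 genes was higher than in S in both epithelia, and 8 (CDH2, CDH3, CLDN11, GJA1, JAM2, JAM3, NECTIN3 and PARD3) were lower in both. The calls held in each of the 8 fits that left out a gilt for 37 of the 40 in LE and 37 of the 39 in GE. The exceptions were TJP1, CDH17 and PARD6B in LE and CLDN22 and PARD6B in GE, with PARD6B lost without gilt CL78 in LE and without PG39 or PG43 in GE (adjusted p up to 0.0107) and CLDN22 without PG43 (0.0113). Since whole compartments were sampled, fewer cells of a type and less RNA per cell cannot be told apart in any of these values.

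**Figure D2:**
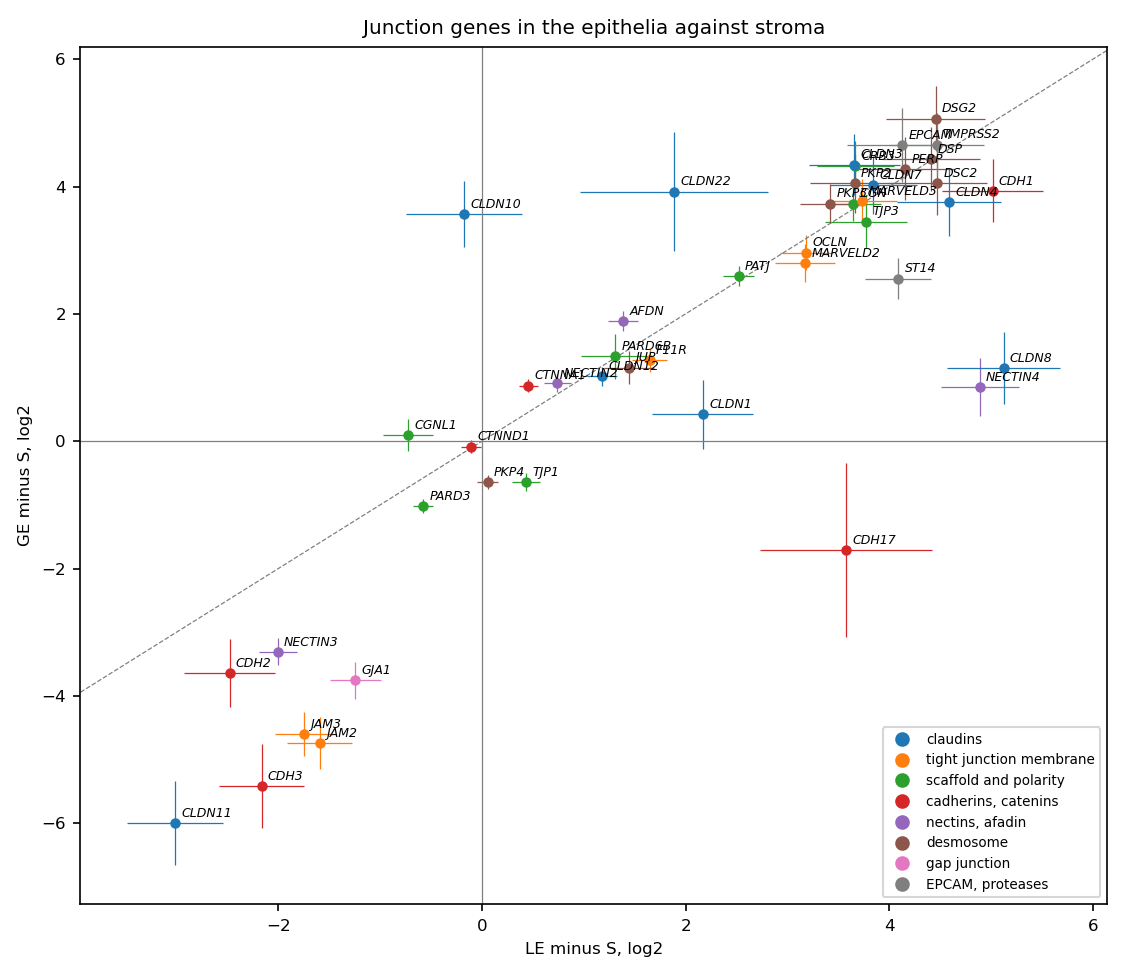
Difference of LE from S (horizontal axis) against difference of GE from S (vertical axis) on the log2 scale for the 45 tested junction genes, with bars for the standard error and a dashed line where the 2 epithelia would be equal. Genes such as CDH1, DSP and TMPRSS2 lie high on both axes, CLDN8, NECTIN4 and CDH17 lie far to the right of the line, CLDN10 lies far to its left, and JAM2, JAM3, CDH3 and CLDN11 lie low on both.

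Among the claudins, the transmembrane proteins that set the permeability of tight junctions, 6 of 9 tested were higher in LE than in S and 6 of 9 higher in GE. CLDN8, a barrier-forming claudin, had the highest level per kilobase of all 49 genes in LE, at 571 CPM per kb. Its level was 443 ± 169 CPM in LE, 25.5 ± 18.6 in GE, 13.5 ± 11.3 in S and 1.79 ± 2.44 in BV (SD, n = 8 gilts, 7 in GE), so that LE exceeded GE by 3.97 ± 0.57 on the log2 scale (± SE, adjusted p = 6.24e-06 in the quasi-likelihood test). CLDN4 had 358 ± 107 CPM in LE and 213 ± 94.4 in GE, with 12.3 ± 13.3 in BV and 17.8 ± 16.0 in S. The single low GE value of CLDN4, 24.4 CPM, was that of CG128, and the other GE libraries lay between 193 and 297 CPM.

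CLDN3, CLDN7, CLDN10 and CLDN22 had their highest mean in GE. CLDN10, which forms paracellular ion channels, was at 32.8, 27.9, 51.3 and 21.2 CPM in cyclic GE and at 23.4, 32.8 and 13.4 in pregnant GE. In LE it stayed between 0.285 and 3.19 CPM in all 8 libraries, so that the LE and GE values did not overlap. The difference between LE and GE was -3.75 ± 0.54 on the log2 scale (adjusted p = 6.81e-06), the only claudin called lower in LE than in GE. CLDN22 averaged 11.3 ± 8.29 CPM in GE and 2.90 ± 3.49 in LE, a difference that was not called (-2.03 ± 0.76, adjusted p = 0.0301). CLDN3 and CLDN7 reached 101 ± 30.2 and 98.9 ± 20.8 CPM in LE and 156 ± 30.9 and 105 ± 15.7 in GE, and neither was called between the 2 epithelia. CLDN11 alone among the claudins was highest in S, at 7.15 ± 4.45 CPM.

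The other membrane proteins of tight junctions fell into 2 patterns. OCLN, the founding member of the occludin family, and MARVELD2 (tricellulin), which seals the corners where 3 cells meet, had 316 ± 56.3 and 126 ± 36.3 CPM in LE and 268 ± 85.6 and 93.0 ± 21.8 in GE. Relative to S they were higher by 3.19 and 3.17 on the log2 scale in LE and by 2.96 and 2.79 in GE. JAM2 and JAM3, junctional adhesion molecules known from endothelium, were highest in BV and S, at 117 ± 40.8 and 82.3 ± 10.7 CPM in BV and 80.4 ± 22.1 and 126 ± 40.5 in S. Both were lowest in GE, at 2.92 ± 2.37 and 5.24 ± 2.47 CPM, and intermediate in LE, at 27.9 ± 13.8 and 39 ± 18.4.

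Scaffold and polarity genes were less uniform. TJP1, which ties claudins to actin, was abundant in every compartment, with 622 ± 101 CPM in LE, 524 ± 89.1 in BV, 466 ± 124 in S and 296 ± 44.2 in GE. GE was lower than LE by 1.07 ± 0.15 and lower than S by 0.64 ± 0.14 on the log2 scale (adjusted p = 3.48e-06 and 0.000481). The difference of TJP1 between LE and S was 0.43 (adjusted p = 0.00899) but, of the 8 fits that left out a gilt, was called only in the one without gilt PL139 (adjusted p up to 0.05). Per kilobase of exon its relative TJP3 was lower, at 4.89 CPM per kb in LE against 78.6 for TJP1. In CPM, TJP3 had 24.8 ± 7.92 in LE and 19.0 ± 5.41 in GE, with 2.10 ± 2.54 in BV and 1.80 ± 1.58 in S. CGNL1 (paracingulin) was as abundant in S as in GE, at 365 ± 77.2 and 408 ± 190 CPM, and differed between them by 0.10 ± 0.26 (adjusted p = 0.75). CGN (cingulin), PATJ and CRB3, the last 2 belonging to the Crumbs polarity complex, were higher in both epithelia than in S by 2.52 to 4.32 on the log2 scale.

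Classical cadherins separated the epithelia from BV and S. CDH1 (E-cadherin) had 1010 ± 176 CPM in LE and 458 ± 134 in GE, against 35.1 ± 35.7 in BV and 49.7 ± 57.3 in S. CDH2 (N-cadherin) was highest in BV at 52.1 ± 34.0 CPM and next in S at 12.8 ± 4.11, with 2.31 ± 1.40 in LE and 1.21 ± 1.20 in GE. CDH3 (P-cadherin) followed the same order, with 32.1 ± 11.8 CPM in BV, 4.83 ± 2.43 in S, 1.12 ± 1.17 in LE and 0.122 ± 0.229 in GE. CDH1 and CDH3 are neighbours on chromosome 6 (Sscrofa11.1), both on the minus strand, with CDH1 at 18075487 to 18155986 and CDH3 at 18190971 to 18236184. The catenins that bind their tails were present in every compartment. CTNND1 (p120 catenin) had 416 ± 52.0, 425 ± 48.7, 551 ± 53.1 and 449 ± 79.3 CPM in LE, GE, BV and S and was called in none of the 4 comparisons between compartments. CTNNA1 (alpha-catenin) was called higher in both epithelia than in S, by 0.46 in LE and 0.87 in GE.

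In CDH17 (liver-intestine cadherin) a single library set the level. It was at 1943, 80.8, 46.8 and 24.6 CPM in the cyclic LE libraries CL128, CL40, CL42 and CL78, and at or below 1.14 in pregnant LE. In GE it was at 1.73, 0, 0 and 1.70 CPM in the same cyclic gilts and at 0.197, 0 and 0 in the pregnant gilts. LE exceeded GE by 5.29 ± 1.17 and S by 3.58 ± 0.84 on the log2 scale (adjusted p = 0.000669 and 0.000992), calls that were lost without gilt PL39 (adjusted p = 0.0282) and without gilt PL41 (0.0313), respectively. Library CS128, S of the same gilt as CL128, held 30 CPM, whereas the other 7 S libraries held at most 1.37.

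Nectins bind their partners across the cleft and reach actin through afadin. NECTIN4 was highest in LE, with 37.5 ± 19.0 CPM there, 2.10 ± 1.21 in GE, 2.11 ± 2.43 in S and 0.329 ± 0.804 in BV, and LE exceeded GE by 4.04 ± 0.36 (adjusted p = 1.97e-08). NECTIN3 was arranged in the other direction, with 120 ± 20.7 CPM in BV, 102 ± 15.7 in S, 27.0 ± 9.87 in LE and 10.4 ± 3.94 in GE. AFDN (afadin) was highest in GE at 342 ± 157 CPM, with 235 ± 43.1 in LE, 131 ± 38.4 in BV and 90.9 ± 26.4 in S. Its lower level in LE than in GE (-0.50 ± 0.15, adjusted p = 0.00849) was not called in 5 of 8 fits that left out a gilt, those without gilts CL40, CL42, PL39, PL41 and PL43 (adjusted p up to 0.103).

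Of the 8 desmosomal genes tested, 7 were higher in LE than in S and 7 higher in GE. DSP (desmoplakin), the plaque protein that binds keratin, had 526 ± 136 CPM in LE and 497 ± 100 in GE, with 37.0 ± 33.1 in BV and 31.7 ± 33.3 in S. DSC2 and DSG2, the desmosomal cadherins of simple epithelia, reached 393 ± 168 and 112 ± 38.6 CPM in LE and 246 ± 80.0 and 150 ± 41.1 in GE. PERP, a tetraspan membrane protein of desmosomes, was at 107 ± 55.7 CPM in LE and 98.9 ± 14.1 in GE. PKP4 departed from the other plakophilins. It had 86.6 ± 11 CPM in BV, 67.1 ± 14.6 in LE, 64.0 ± 4.95 in S and 41.2 ± 4.77 in GE, and was lower in GE than in S by 0.64 ± 0.11 (adjusted p = 3.19e-05).

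The gap junction gene GJA1 (connexin 43) was highest in S, at 294 ± 88.9 CPM, with 127 ± 34.4 in LE, 116 ± 42.2 in BV and 22.3 ± 9.16 in GE. LE exceeded GE by 2.51 ± 0.28 (adjusted p = 2.93e-07). EPCAM, an epithelial adhesion protein that binds claudins, and TMPRSS2, a serine protease of the apical membrane, had 287 ± 96.0 and 579 ± 218 CPM in LE and 369 ± 56.6 and 630 ± 297 in GE, and were not called between the epithelia. ST14 (matriptase), a protease that acts on EPCAM and claudins, was higher in LE at 139.4 ± 56.2 CPM than in GE at 43.8 ± 16.2, by 1.53 ± 0.30 (adjusted p = 0.000178).

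Between the 2 epithelia, 14 of 45 genes were higher in LE and 3 lower, against a background of 41.4% called (25.9% higher and 15.5% lower). The median of all genes in this comparison was 0.13 on the log2 scale. Beside CLDN8, NECTIN4, CDH17, ST14 and CLDN1, the higher genes included JAM2 (3.15 ± 0.41), CLDN11 (2.99 ± 0.85), JAM3 (2.85 ± 0.33), CDH3 (3.25 ± 0.80) and NECTIN3 (1.30 ± 0.21), all of them higher in S than in either epithelium. GJA1, given above, was likewise higher in LE than in GE and highest in S. Markers of other cells moved with these genes. All 10 fibroblast markers and all 10 endothelial markers had counts in both epithelia. The summed level of the fibroblast markers was 4303 to 17587 CPM in the 8 LE libraries and 2976 to 7736 in the 7 GE libraries, and that of the endothelial markers was 156 to 1069 in LE and 19.4 to 193 in GE. Their part in these differences was not tested. Without the gilt of CG128, 15 genes were called in place of 17, and the share of all genes called in that fit is not given. Among fits that left out a gilt, CLDN11 and CLDN1 were lost in 5 of 8, CDH3 without gilts CL128 or PL43 and PARD3 without gilt CL128 (adjusted p up to 0.0699).

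Between BV and S, 7 of 45 genes (15.6%) were called, where 7.19% of all genes were. CDH3 (2.80 ± 0.33), CDH2 (1.87 ± 0.38) and PKP4 (0.43 ± 0.10) were higher in BV. CLDN8 (-3.32 ± 0.75), CLDN11 (-1.83 ± 0.44), GJA1 (-1.38 ± 0.25) and PARD3 (-0.63 ± 0.10), the last a polarity scaffold, were lower in BV. CLDN8 was at 13.3, 1.96, 0.730 and 24.8 CPM in the cyclic S libraries CS128, CS40, CS42 and CS78 and at 20.8, 1.52, 30.1 and 14.6 in the pregnant S libraries PS139, PS39, PS41 and PS43, and at most at 7.28 in BV. The summed level of the epithelial markers in the same S libraries was 161, 12.1, 7.65 and 129 CPM in cyclic and 152, 27.0, 327 and 71.8 in pregnant gilts, and 3.69 to 176 in BV, so that the 3 S libraries lowest in CLDN8 were also the 3 lowest in the markers. The part of the markers in these differences was not tested. Only CDH3, GJA1 and PARD3 were called in all 8 fits that left out a gilt. CLDN11 was called in none of them (adjusted p 0.0117 to 0.0255), CLDN8 was lost without gilts CB128, CB40, CB78, PB41 or PB43 (adjusted p up to 0.0222), CDH2 without gilts CB78, PB39 or PB41 (up to 0.0140), and PKP4 in all but the fit without gilt CB128 (up to 0.0451). DESeq2 called 11 (10.3% of all genes), as did the quasi-likelihood test at a false discovery rate of 5% (14.4%).

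Promoter sequence is shown for 3 of the genes higher in both epithelia, because CACCTG is the motif that SNAI and ZEB repressors of epithelial genes bind and AACNGGTT the one that grainyhead-like factors bind. The windows hold the 250 bases before the annotated start in Sscrofa11.1, 5′ to 3′ on the gene's strand, with motif matches on either strand in capitals (CAGGTG is CACCTG on the other strand). The CDH1 window is chr6:18155987-18156236 (minus strand), that of CLDN4 chr3:11039461-11039710 (plus strand) and that of CRB3 chr2:72623267-72623516 (minus strand).
CDH1: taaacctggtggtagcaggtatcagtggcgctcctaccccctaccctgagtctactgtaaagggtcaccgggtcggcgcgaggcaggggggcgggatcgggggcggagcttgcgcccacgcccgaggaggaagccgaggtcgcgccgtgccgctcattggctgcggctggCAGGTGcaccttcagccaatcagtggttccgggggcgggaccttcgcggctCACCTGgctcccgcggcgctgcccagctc
CLDN4: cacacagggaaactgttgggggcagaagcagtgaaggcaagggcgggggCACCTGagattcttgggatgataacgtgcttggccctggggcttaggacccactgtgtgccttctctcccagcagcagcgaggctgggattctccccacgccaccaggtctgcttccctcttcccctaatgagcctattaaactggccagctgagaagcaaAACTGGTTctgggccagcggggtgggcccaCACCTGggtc
CRB3: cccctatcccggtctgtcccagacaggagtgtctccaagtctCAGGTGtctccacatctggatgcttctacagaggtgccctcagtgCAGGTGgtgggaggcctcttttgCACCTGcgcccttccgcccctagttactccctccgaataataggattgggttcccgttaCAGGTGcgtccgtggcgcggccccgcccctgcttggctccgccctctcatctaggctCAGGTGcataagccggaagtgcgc
CDH1 and CLDN4 each hold 2 CACCTG matches and CRB3 holds 5. CLDN4 also holds the only AACNGGTT match among the 49 windows. CACCTG occurred in 17 of the 49 windows (34.7%) and in 19.4% of 20640 promoter windows of the same length, and in 14 of the 27 genes higher in both epithelia. AACNGGTT occurred in 2.04% of the 49 and 1.39% of all. The stricter form AACCGGTT occurred in none of the 49 and in 0.0872% of all. These matches describe letters in the window and not bound sites.

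Pregnant and cyclic gilts were then compared within each compartment. By the methods of the study, pregnant endometrium came from hyperemic zones of attachment once the conceptus had been removed. No such zones are described for cyclic gilts. Pregnancy and the site sampled therefore cannot be told apart in these comparisons. In LE, 1 of 41 detectable junction genes was called by the quasi-likelihood test at a false discovery rate of 1%, and it was lower in pregnant gilts, where 3.32% of all 12002 genes were called (1.29% lower). The median log2 change of the 41 genes was 0.06 and that of all genes was -0.01. An unadjusted p under 0.05 was found for 15 of the 41 (3233 of 12002 genes). The robust likelihood-ratio fit of edgeR, which the study used, and DESeq2 each called 7 (11.8% and 11.2% of all genes). So did the quasi-likelihood test at a false discovery rate of 5% (10.7%).

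**Figure D3:**
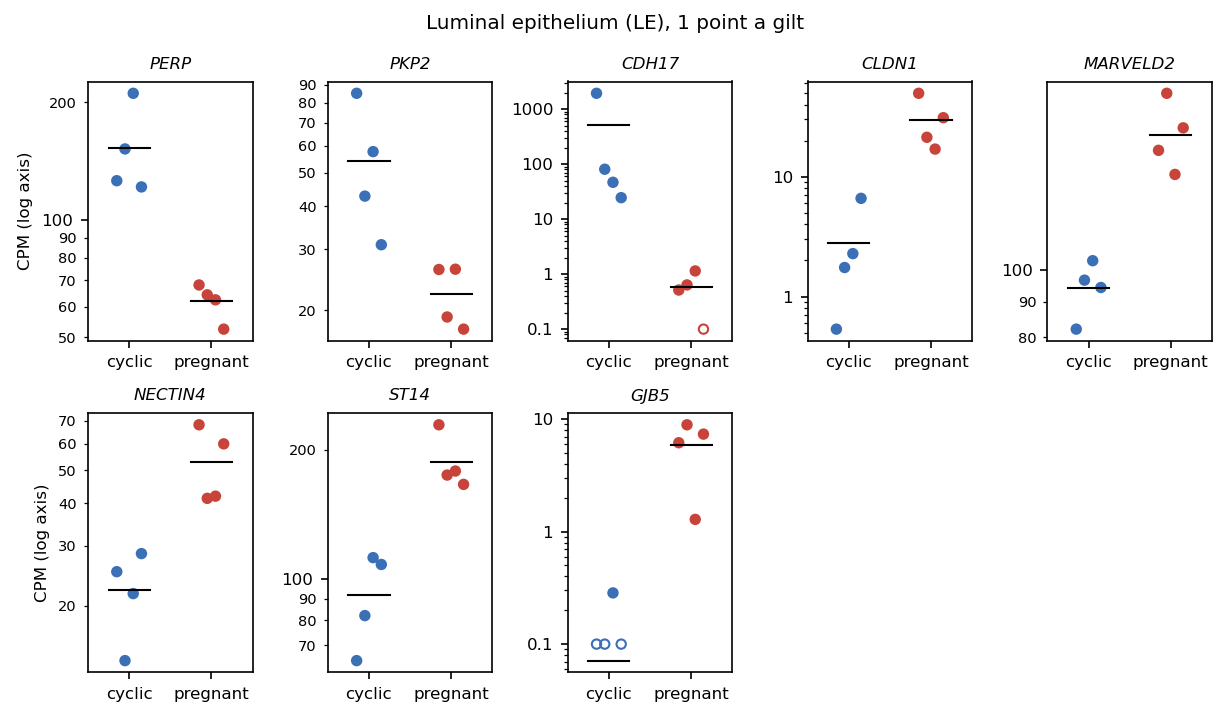
Level in LE of 7 junction genes and the connexin gene GJB5 in cyclic (blue) and pregnant (red) gilts, 1 point per gilt, in CPM on a log axis, with the mean as a black line and open circles for values below 0.1 CPM drawn at 0.1. PERP, PKP2 and CDH17 are lower in every pregnant gilt than in any cyclic gilt, and CLDN1, MARVELD2, NECTIN4, ST14 and GJB5 are higher in every pregnant gilt. Most were picked by their calls, which favours groups that stay apart.

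PERP fell in pregnant LE. It was at 126, 152, 211 and 121 CPM in the cyclic gilts and at 68.1, 64.3, 62.4 and 52.5 in the pregnant gilts. Every pregnant gilt lay below every cyclic gilt, with a change of -1.29 ± 0.20 on the log2 scale, 2.44-fold (adjusted p = 0.00602). The call was kept when CL128 or CL78 was left out and lost without any of the other 6 libraries (changes between -1.37 and -1.10, adjusted p up to 0.0244). In GE the same gene was at 97 CPM in cyclic and 102 in pregnant gilts.

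The desmosomal gene PKP2 and the cadherin gene CDH17 had lower values in pregnant LE without reaching the threshold of the quasi-likelihood test. PKP2, the plakophilin of simple epithelia, was at 85.1, 42.8, 57.6 and 30.9 CPM in cyclic LE and at 26.2, 19.1, 26.3 and 17.6 in pregnant LE. The log2 difference was -1.25 ± 0.30 (adjusted p = 0.0306), and both the robust fit (adjusted p = 0.00171) and DESeq2 (0.00243) called it. CDH17, with the cyclic values given above, was at 0.514, 0.636, 1.14 and 0 CPM in PL139, PL39, PL41 and PL43, below every cyclic value. In CDH17 only cyclic libraries reached the level the CPM filter asks for in LE, so that it could be tested only as a gene higher in cyclic gilts. The log2 difference of CDH17 was -9.52 ± 1.87 (adjusted p = 0.0138), was called by the robust fit, and had no adjusted p in DESeq2. Leaving out CL128, which held 1943 CPM, or CL78 brought CDH17 past the threshold, and over all 8 such fits the difference lay between -10.2 and -6.18. DSP and DSG2 averaged 626 and 141 CPM in cyclic LE and 427 and 83.6 in pregnant LE (adjusted p = 0.0743 and 0.0629).

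Several tight junction and nectin genes had higher values in pregnant LE. CLDN1, a barrier claudin, was at 0.535, 1.75, 2.28 and 6.60 CPM in cyclic LE and at 49.6, 21.3, 17.0 and 31.1 in pregnant LE, without overlap. Its difference was 3.38 ± 0.64 on the log2 scale, 10.4-fold (adjusted p = 0.0116), and it was called by the robust fit and DESeq2. The quasi-likelihood test called it in 1 of the 8 fits that left out a library, the one without CL78 (4.30, adjusted p = 0.00344, up to 0.0415 in the others). MARVELD2 was at 82.2, 96.8, 103 and 94.4 CPM in cyclic and 149, 181, 138 and 161 in pregnant LE, a log2 difference of 0.75 ± 0.15 (adjusted p = 0.0147).

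NECTIN4 was at 25.2, 13.8, 21.7 and 28.4 CPM in cyclic LE and at 68.1, 41.4, 42 and 59.9 in pregnant LE, a log2 difference of 1.26 ± 0.28 (adjusted p = 0.0220). ST14 was at 64.5, 82.1, 112 and 108 CPM in cyclic and at 229, 175, 179 and 166 in pregnant LE, a log2 difference of 1.04 ± 0.22 (adjusted p = 0.0192). The 2 groups did not overlap in either gene, and both other tests called MARVELD2, NECTIN4 and ST14. Most of the LE genes named for groups that stay apart were picked by their calls, which favours such groups. The share over all genes was not counted. CDH1 averaged 855 ± 88.6 CPM in cyclic and 1165 ± 28.7 in pregnant LE, a log2 difference of 0.46 ± 0.16 that only DESeq2 called (adjusted p = 0.0939 in the quasi-likelihood test and 0.00601 in DESeq2).

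OCLN, TJP1, CGN, EPCAM and CTNND1 differed by -0.26 to -0.09 on the log2 scale with adjusted p of 0.313 or more. CLDN8 averaged 572 CPM in cyclic and 315 in pregnant LE (-0.85 ± 0.30, adjusted p = 0.102). Epithelial markers moved with pregnancy as well: the summed level of the 12 markers (11 with counts, KRT23 at 0) was 2185 to 2722 CPM in cyclic LE and 993 to 1709 in pregnant LE. The keratins carried this difference. KRT7 (-2.73) and KRT8 (-1.60) were called lower, KRT18 (-1.46) and KRT19 (-3.45) were not (adjusted p = 0.0101 and 0.0112), and the keratins together summed to 1276 to 2082 CPM in cyclic and 311 to 626 in pregnant LE. The 7 other markers summed to 640 to 1039 and 682 to 1083 CPM. None of the 7 was called, 5 of them with log2 differences of -0.62 to -0.01 and MAL2 and ELF3 with 0.47 and 0.63. Their part in the junction genes was not tested.

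In GE no junction gene of 39 was called by the edgeR quasi-likelihood test, where 0.748% of all 11905 genes were. An unadjusted p under 0.05 was found for 8 of 39 (2742 of all genes), the robust fit called 4 (6.66% of all genes) and DESeq2 5 (6.64%). Leaving out CG128 also left 0 calls. PKP2 was at 58.1, 113, 52.5 and 49.6 CPM in cyclic GE and at 29.9, 23.6 and 25.4 in PG139, PG39 and PG43, all lower than any cyclic value (-1.38 ± 0.32, adjusted p = 0.0669). GJA1 was at 20.1, 14.8, 11.9 and 15.5 CPM in cyclic and at 27.2, 36.2 and 30.8 in pregnant GE, again without overlap (1.0 ± 0.20, adjusted p = 0.0539). CLDN22 was at 14.7, 24.4, 17.4 and 10.8 CPM in cyclic and at 1.77, 1.83 and 8.07 in pregnant GE (-2.16 ± 0.58, adjusted p = 0.0889). The robust fit and DESeq2 called these 3 genes, and CLDN22 was called by the quasi-likelihood test when PG43, the highest of the 3, was left out (-3.22). CLDN10, the claudin called higher in GE than in LE, differed by -0.53 ± 0.37 (adjusted p = 0.43). Of CDH17, 16 counts in the cyclic and 1 in the pregnant GE libraries gave a ratio of 11.2 (95% counting interval 1.74 to 470).

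The largest number of calls came from BV. There 6 of 31 junction genes rose in pregnant gilts and none fell, against a background of 1.86% of 11096 genes called (1.3% higher). The median log2 change of the 31 genes was 0.60 and that of all genes was 0.00. The robust fit called 13 (11% of all genes), DESeq2 12 (8.5%), and the quasi-likelihood test at a false discovery rate of 5% 13 (8.63%). The CPM filter bears on this count. Genes passed it in BV where 3 libraries reached 6.74 CPM, and 7 of the 31 (CLDN3, CLDN4, CLDN7, CGN, DSG2, PERP and TMPRSS2) did so in pregnant libraries only, as did 224 of all 11096 genes. CLDN3, CGN, PERP and TMPRSS2 among the 6 could therefore be called only as higher in pregnant gilts, CDH1 passed with 1 cyclic library over that level, and DSP with all 4. Counts and median over the 31 genes are a description for that reason. Without the filter the same 6 were called, and 8 in all of 47, at that fit's own p limit of 2.15e-04 from LE. The share of all genes called in that fit is not given, so this count is a description too. All 6 belong to the genes higher in both epithelia than in S. CDH1 was at 4.03, 8.39, 1.42 and 5.52 CPM in the cyclic libraries CB128, CB40, CB42 and CB78 and at 96.9, 65.9, 43.7 and 54.9 in the pregnant libraries PB139, PB39, PB41 and PB43. TMPRSS2 was at 0.672, 5.10, 0.568 and 5.10 CPM in cyclic and at 89.2, 63.7, 32.9 and 76.8 in pregnant BV. Neither gene's groups overlapped, and the changes were 3.77 ± 0.44 for CDH1 (13.6-fold, adjusted p = 0.0130) and 4.56 ± 0.58 for TMPRSS2 (23.6-fold, adjusted p = 0.0130).

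**Figure D4:**
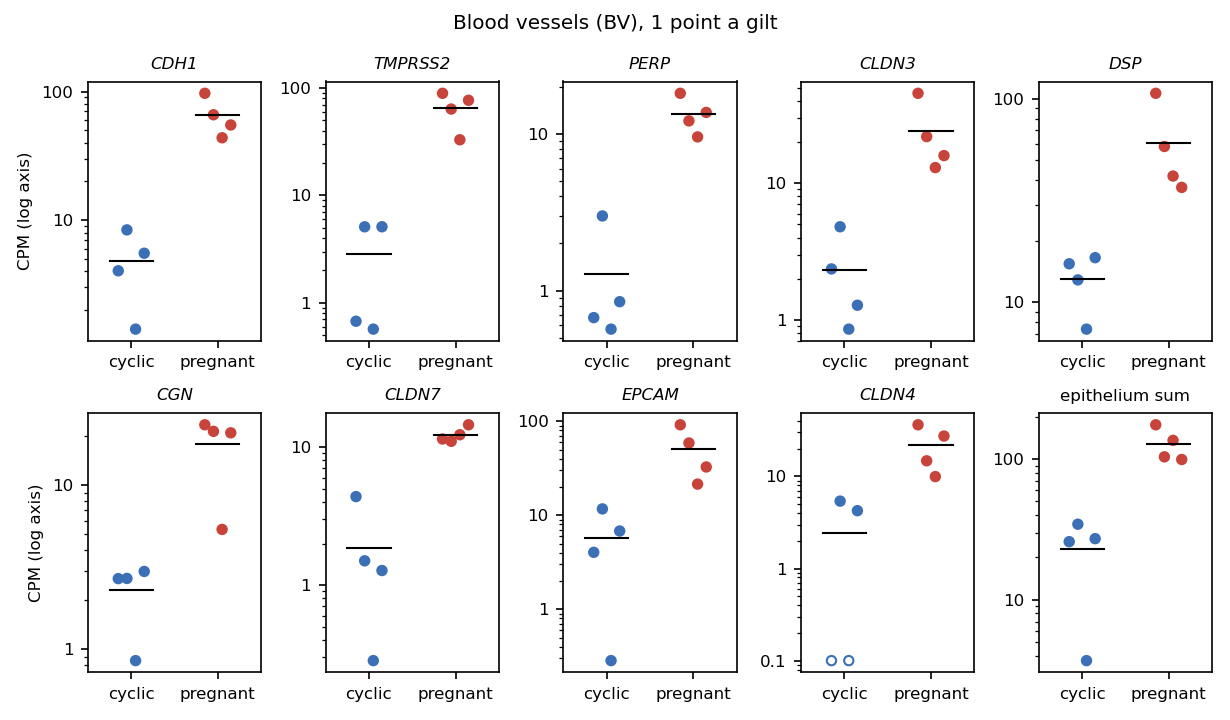
Level in BV of 9 junction genes and the summed level of the epithelial markers in cyclic (blue) and pregnant (red) gilts, 1 point per gilt, in CPM on a log axis, with the mean as a black line and open circles for values below 0.1 CPM drawn at 0.1. In each panel, the marker sum included, all 4 pregnant gilts lie above all 4 cyclic gilts, and CB42 (the third point) is the lowest or joint lowest.

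PERP rose in BV, opposite in sign to its change in LE, from 0.672, 3.0, 0.568 and 0.850 CPM to 18.2, 12.1, 9.58 and 13.7 (3.33 ± 0.49, adjusted p = 0.0131). CLDN3 rose from 2.35, 4.80, 0.852 and 1.27 CPM to 45.7, 22.0, 13.0 and 16.0 (3.34 ± 0.57, adjusted p = 0.0163). DSP was at 15.5, 12.9, 7.38 and 16.6 CPM in cyclic and at 107, 58.4, 41.8 and 36.7 in pregnant BV (2.24 ± 0.38, adjusted p = 0.0163). In each of these genes the groups were apart in all 8 gilts, and PB139 was the highest. CGN was at 2.69, 2.70, 0.852 and 2.97 CPM in cyclic and at 23.3, 21.2, 5.36 and 20.8 in pregnant BV (2.96 ± 0.52, adjusted p = 0.0164).

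Calls for CDH1, TMPRSS2 and PERP were kept in all 8 fits that left out a library. CLDN3 was lost without CB128, CB42, CB78 or PB39 (changes 2.84 to 3.99, adjusted p up to 0.0551). DSP was lost without any of the cyclic libraries or PB39 (1.83 to 2.42, adjusted p up to 0.0551). CGN was kept only without PB41, its lowest pregnant value (2.66 to 3.26, adjusted p up to 0.0566).

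A further 6 genes were called in BV by the robust fit and DESeq2 but not by the quasi-likelihood test. CLDN7 was at 4.37, 1.5, 0.284 and 1.27 CPM in cyclic and at 11.4, 11, 12.3 and 14.5 in pregnant BV (2.73 ± 0.54, adjusted p = 0.0193). EPCAM was at 4.03, 11.7, 0.284 and 6.80 CPM in cyclic and at 91.8, 58.7, 21.5 and 32.7 in pregnant BV (3.18 ± 0.70, adjusted p = 0.0289). Both are carried by epithelial cells, where claudin 7 is bound by EPCAM. The desmosomal cadherin DSG2 was at 0.672, 4.80, 0.284 and 1.27 CPM in cyclic and at 21.1, 18.6, 5.36 and 15.2 in pregnant BV (3.06 ± 0.69, adjusted p = 0.0318). DSC2 was at 4.71, 12, 0.284 and 10.6 CPM in cyclic and at 44.4, 27.3, 32.2 and 49.3 in pregnant BV (2.5 ± 0.61, adjusted p = 0.0386). The remaining 2 differed less: PATJ was at 46.4, 46.8, 33.2 and 47.6 CPM in cyclic and at 99.0, 65.2, 68.2 and 76.1 in pregnant BV (0.84 ± 0.18, adjusted p = 0.0277). NECTIN2, a nectin found in many cell types, was at 19.5, 21.6, 15.6 and 12.3 CPM in cyclic and at 42.3, 29.9, 26.4 and 29.7 in pregnant BV (0.90 ± 0.22, adjusted p = 0.0406). None of the 6 had overlapping groups. These genes were picked by their calls, which favours groups that stay apart, and the share over all genes was not counted. The same holds for the called BV genes above and for the genes of GE, S and the other lists whose groups did not overlap.

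Epithelial markers moved with these genes in BV. The 12 markers summed to 25.9, 34.5, 3.69 and 27.2 CPM in cyclic BV and to 176, 104, 136 and 99.4 in pregnant BV, a 7.24-fold difference of geometric means (two-sided exact permutation p = 0.0286, the smallest that 4 against 4 allows). Of the 12, 11 had counts in BV and KRT23 was at 0 in every library of the series. The 5 that were detectable in BV differed by 1.94 to 3.31 on the log2 scale, and CDS1 was called. The others were too low for this test. The highest cyclic BV mean of any marker was 5.35 CPM (KRT8), under the 6.74 CPM that 3 libraries had to reach. The filter therefore favours a rise among these 5, and their differences are a description. In a fit with the log2 marker sum as a covariate, none of the 6 genes was called by the quasi-likelihood test (0.027% of all 11096 genes were, and 934 had an unadjusted p under 0.05), the unadjusted p was 0.0112 for CDH1 and 0.0471 for TMPRSS2, and their log2 differences were 1.88 ± 0.59 for CDH1, 2.73 ± 1.18 for TMPRSS2, 1.88 ± 0.98 for PERP, 1.20 ± 1.02 for CLDN3, 1.03 ± 0.60 for DSP and 1.81 ± 1.03 for CGN. Those of EPCAM and DSC2 turned to -0.27 ± 0.89 and -0.37 ± 0.77. The marker sums of cyclic and pregnant gilts did not overlap in BV, so this fit cannot well separate the markers from pregnancy. Keratins in the sum were themselves lower in pregnant epithelium. KRT8 averaged 674 CPM in cyclic and 247 in pregnant gilts (mean of LE and GE), so the sum is not a fixed measure of epithelial RNA. No conclusion is drawn from this fit. Smooth muscle markers (10 of 10 with counts) moved opposite to the epithelial markers, summing to 7970 to 22577 CPM in cyclic and 1986 to 8848 in pregnant BV.

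Set against the epithelia, these BV levels were small. As a percent of the mean of LE and GE in the same pregnancy state, the 27 genes higher in both epithelia had a median of 2.52% in cyclic BV and 16.9% in pregnant BV. The 11 epithelial markers with counts had medians of 1.42% and 10.4%. CDH1 was at 0.797% and 7.46%, TMPRSS2 at 0.591% and 8.84%, and PERP at 1.02% and 16.4%. AFDN, CLDN12, CTNNA1, F11R and NECTIN2 were at 30% or more in BV in both states, whereas in cyclic BV no marker exceeded 3.92%. The markers themselves ranged from 2.69% to 30% in pregnant BV.

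**Figure D5:**
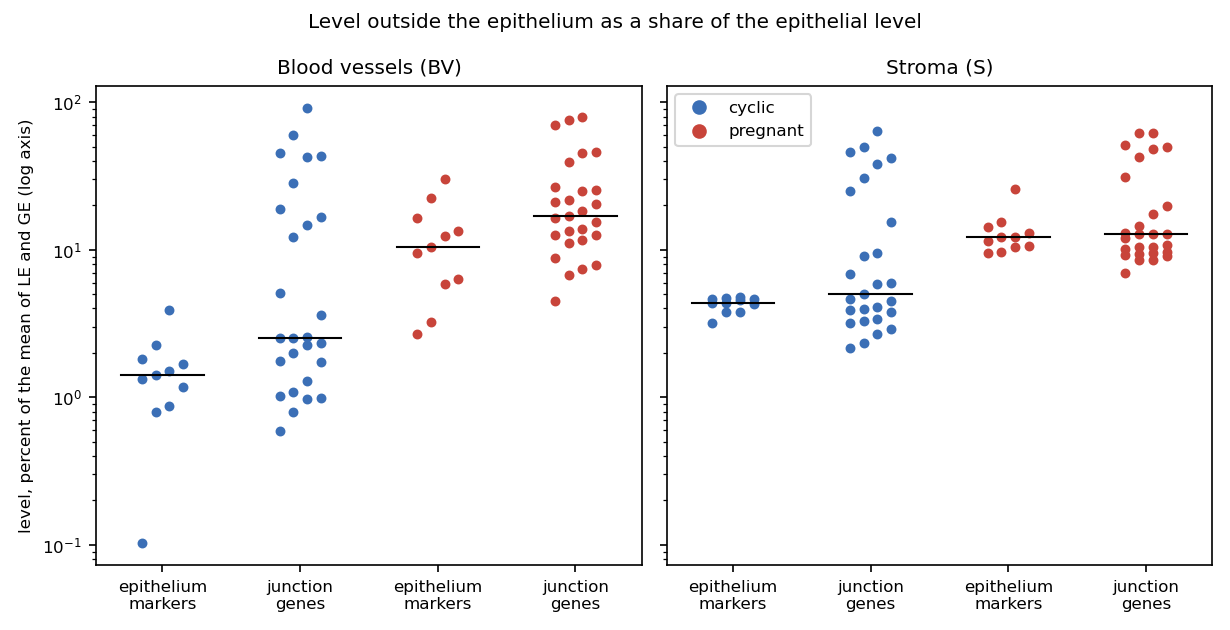
Level in BV (left) and S (right) as a percent of the mean of LE and GE in the same pregnancy state, on a log axis, for 11 epithelial markers and the 27 junction genes higher in both epithelia than in S, 1 point per gene, with the median as a black line. In BV the medians are 1.42% in cyclic and 10.4% in pregnant gilts for markers and 2.52% and 16.9% for junction genes, and in S 4.39% and 12.2% for markers and 5.02% and 12.8% for junction genes.

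The junction genes that BV holds above the epithelia were not called in pregnancy. CDH2 and CDH3 averaged 59.4 and 39.3 CPM in cyclic and 44.7 and 25 in pregnant BV (-0.39 ± 0.59 and -0.63 ± 0.27, adjusted p = 0.692 and 0.153). JAM2 averaged 102 and 131 CPM, JAM3 84.9 and 79.7, and NECTIN3 116 and 124 (adjusted p of 0.446 or more). CTNND1 averaged 534 and 568 CPM and PKP4 90.3 and 82.8, and neither was called. TJP1, which was higher in LE than in BV, averaged 562 and 486 CPM in BV (adjusted p of 0.446 or more). CLDN1, too low for the BV test, was at 8.74, 1.5, 0.852 and 0.850 CPM in cyclic and at 0.423, 0.379, 1.15 and 0 in pregnant BV.

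In S no junction gene of 34 was called by the edgeR quasi-likelihood test, where 0.293% of 11935 genes were. An unadjusted p under 0.05 was found for 8 (1735 of all genes), the robust fit called 5 (3.16% of all genes) and DESeq2 1 (2.6%). CLDN11, a claudin known from myelin and Sertoli cells, was called by both. It was at 3.48, 5.89, 1.46 and 3.42 CPM in cyclic S and at 9.82, 8.35, 9.83 and 15 in pregnant S, without overlap, a log2 difference of 1.58 ± 0.38 (adjusted p = 0.134). With the epithelial marker sum as a covariate the difference was 1.57 ± 0.43. CDH1, TMPRSS2 and ST14 differed by 2.30 ± 0.98, 2.44 ± 0.85 and 2.07 ± 0.71 in S (adjusted p of 0.241 or more). The epithelial marker sums of S, given above, varied widely and overlapped between the groups (2.66-fold, two-sided exact permutation p = 0.314). The order of the junction genes followed the same libraries: CS42 was the lowest S library in 15 of 34 genes and PS41 the highest in 16.

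Whether pregnancy effects differed between compartments was tested in the joint fit. Between LE and BV, 3 of 45 junction genes were called, where 2.3% of 13887 genes were. The effect in LE minus that in BV was -4.67 ± 1.02 on the log2 scale for PERP (adjusted p = 0.00815), -3.14 ± 0.57 for CGN (0.00200) and 5.34 ± 1.20 for CLDN1 (0.00958). CGN, which carried 74.9, 114, 103 and 143 CPM in cyclic and 92.5, 57.3, 87.4 and 147 in pregnant LE, overlapped in LE. PERP was kept only when the gilt of PL41 was left out, CLDN1 only without gilts CL78 or PL41, and CGN in all fits but those without gilts CL40, CL42 or PL39, with adjusted p up to 0.0328, 0.0454 and 0.0154. DESeq2 called 11 (5.55% of all genes) and the quasi-likelihood test at a false discovery rate of 5% called 12 (7.41%). Because the epithelial marker sum rose in BV, the differences of PERP and CGN carry the values given beside the BV results. CLDN1 moved opposite to that sum in BV, was too low for the BV test and has no covariate value. Its BV side rests on 41 counts over all 8 libraries, with 8.74 CPM in CB128 and at most 1.5 in any other. Between LE and GE no junction gene was called (edgeR quasi-likelihood test, 1.02% of all genes), with 5 of 45 at an unadjusted p under 0.05 against 16.5% of all genes. DESeq2 called 1 (3.11% of all genes), as did the quasi-likelihood test at a false discovery rate of 5% (3.67%). That gene was CLDN1 (4.55 ± 1.03, adjusted p = 0.0160 in the quasi-likelihood test), with averages of 5.69 CPM in cyclic and 1.93 in pregnant GE. The cyclic average leans on CG128: the values were 13.6, 1.61, 6.46 and 1.06 CPM in CG128, CG40, CG42 and CG78. In pregnant GE they were 2.36, 1.05 and 2.39. Over the fits that left out a gilt the difference lay between 3.75 and 5.81. Between LE and S no junction gene was called either (0.85% of all genes), with 7 of 45 (15.6%) at an unadjusted p under 0.05 against 16.2% of all genes.

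Other genes of the same junctions, taken from a list of 101 that includes protease inhibitors and transcription factors of epithelial genes, gave 2 calls among 69 tested in LE (2.9%), where 3.32% of all genes were called. The connexin GJB5, a gap junction protein, was one of them. It was at 0, 0, 0.285 and 0 CPM in cyclic and at 6.17, 8.91, 1.29 and 7.36 in pregnant LE. A single count in cyclic LE faced 84 in pregnant LE, a ratio of 77.1 (95% counting interval 13.5 to 3082, adjusted p = 0.00750 in the quasi-likelihood test). GJB5 passed the CPM filter through pregnant libraries only, so that it could be called in no other direction. ILDR1 (angulin-2), which recruits tricellulin to tricellular corners, fell from 114, 163, 104 and 124 CPM to 54.5, 37.5, 64.1 and 48.0 (-1.29 ± 0.21, adjusted p = 0.00673). The groups did not overlap in either gene, and both calls were lost without CL40, CL42, CL78, PL139, PL39 or PL43 and that of GJB5 also without CL128 (adjusted p up to 0.0342).

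In GE, 1 of 61 such genes was called, where 0.748% of all genes were: EHF, an epithelial transcription factor of the ETS family, rose from 61.4, 45, 50.5 and 60.8 CPM to 114, 159 and 140 (1.33 ± 0.18, adjusted p = 0.0296). In BV, 3 of 54 were called (1.86% of all genes), all of them expressed in epithelium: the protease inhibitor SPINT2 (1.66 ± 0.28), the grainyhead-like factor GRHL2 (3.27 ± 0.55) and EHF (2.63 ± 0.43), each with an adjusted p of 0.0163. GRHL2 and EHF passed the CPM filter in BV through pregnant libraries only. GRHL2 was at 2.02, 1.20, 0 and 1.27 CPM in cyclic and at 11.8, 8.72, 10.3 and 12.2 in pregnant BV. SPINT2 and GRHL2 were kept in 2 and EHF in 3 of the 8 fits that left out a library (adjusted p up to 0.0568), and the marker sum given above moved with them. In S none of 59 was called by the edgeR quasi-likelihood test, where 0.293% of all genes were, with 6 (10.2%) at an unadjusted p under 0.05 against 14.5% of all genes.

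Between LE and GE the largest called differences among these genes were those of the kidney-type cadherin CDH16 (7.41 ± 0.62), the serpin SERPINB5 (5.41 ± 0.49) and the protease TMPRSS4 (4.79 ± 0.52), all higher in LE. CDH16 averaged 87.9 ± 89.4 CPM in LE and 0.368 ± 0.414 in GE. In the other direction lay CDH6 (-4.30 ± 0.59), GJB1 (-2.79 ± 0.70) and CDH13 (-2.31 ± 0.33). CDH6, another kidney-type cadherin, averaged 9.11 ± 12.2 CPM in LE and 102 ± 70.0 in GE.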

How the data were processed

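Total RNA of laser-captured endometrial cells was extracted, amplified with a kit for picogram inputs and sequenced, giving 1 library per gilt and compartment. The deposited values are raw read counts per NCBI gene, which the authors made by trimming reads, aligning them to Sscrofa11.1 with Hisat2, removing duplicate reads and counting with QuasR. A second set of deposited count tables holds the genes that passed the authors' CPM filter, called detectable here; its cut-off and the tools' versions are not given in the sources used here. In the tables, genes passed where at least 3 libraries of a compartment (2 in GE) reached a level between 4.85 CPM (LE) and 6.74 CPM (BV), whatever their group. Table columns were matched to samples by their labels.

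Within each compartment, counts of detectable genes were scaled by TMM and tested in edgeR 4.0.16 (R 4.3.3) by its quasi-likelihood test, with Benjamini-Hochberg adjustment over all genes tested. The call rule followed the study, whose own test, edgeR's robust GLM, is an alternative here (the robust fit). In LE a false discovery rate of 1% was used. The highest raw p of the quasi-likelihood test that passed it there (3.28e-04) served as the limit for GE, BV and S. A call there may therefore carry a higher adjusted p. The robust fit and DESeq2 had their own limits from LE, 0.00114 and 0.00112, so their counts rest on wider p limits. Compartments and differences between pregnancy effects were tested in 1 fit of all 31 libraries with the gilt as a block, over 13887 genes detectable in at least 1 compartment, at 1%. Fold changes are those of the fits with edgeR's default prior count. A prior count of 2 was used only for the log2 CPM behind the correlations below. The SE printed with a log2 difference was derived from the test. It is the size of the difference divided by the square root of the quasi-likelihood F statistic, and so is approximate. Compartments came from the same gilts by their labels, and deviations from group means correlated with a median r of 0.15 between libraries of the same gilt (45 pairs, -0.16 to 0.34) and -0.05 between other gilts of a group (135 pairs). Pregnant and cyclic gilts share no number and were not paired.

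The 49 genes, the other lists and the tests were chosen with earlier results of these data known. All 49 genes may be named; values in every library are given for those called by the quasi-likelihood test or by both the robust fit of edgeR and DESeq2 1.42.0, levels for the 2 highest of each junction type and for the largest differences between LE and GE. Other junction genes are named where called in a pregnancy comparison, or as the 3 with the largest called difference between LE and GE in either direction. Some genes of the other lists are not reported here and stand in none of their counts. Alternatives were the robust fit, DESeq2, another scaling, other filters, a false discovery rate of 5%, leaving out libraries, and epithelial markers as a covariate. The tests were checked on simulated data. Promoter windows were read from Sscrofa11.1 (RefSeq annotation release 106). Columns not used here: none. Overlaps of reads between near-identical genes were not resolved.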

Additional observations from a re-analysis of the deposited data

Results flagged for a closer look

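Of 51 groups of 4 libraries examined, 7 held 1 library far from the other 3, by a gap rule. That rule picks about 1 in 20 groups if values are normal and groups independent. These groups share libraries and some values lie near the floor, so the count cannot be set against that rate. CDH17 was at 1943 CPM in CL128, against 80.8 in the next cyclic LE library. PKP2 was at 113 CPM in CG40, with 58.1 in the next cyclic GE library. In cyclic BV, CLDN1 was at 8.74 CPM in CB128 (next 1.5) and PERP at 3.0 in CB40 (next 0.850). CB42 was low for CGN, at 0.852 CPM (next 2.69), and for PATJ, at 33.2 (next 46.4), and had the lowest epithelial marker sum, 3.69 CPM. CGN was at 5.36 CPM in PB41, with 20.8 in the next pregnant BV library.

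The pregnancy effect differed between LE and BV for 3 genes in the quasi-likelihood test of edgeR: CGN (-3.14), PERP (-4.67) and CLDN1 (5.34), on the log2 scale as LE minus BV. PERP fell in LE in 4 of 4 pregnant gilts relative to every cyclic gilt and rose in BV in 4 of 4. The epithelial marker sum was 7.24-fold higher in pregnant BV, and its part in these differences was not tested.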

How the results depend on the processing

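Counts of junction genes called were within 1.5 times of those reported with RLE scaling and with edgeR's own expression filter. Without any filter, 3 genes were called in LE (PERP, CDH17 and CLDN1), and the share of all genes called in that fit is not given. In LE, GE, BV and S the robust fit called 7, 4, 13 and 5, and DESeq2 7, 5, 12 and 1. At a false discovery rate of 5%, 7 were called in LE and 13 in BV. With epithelial markers as a covariate 0 were called in BV (0.027% of all genes), and EPCAM (-0.27) and DSC2 (-0.37) turned negative. That fit cannot well separate the markers from pregnancy in BV. Between BV and S, DESeq2 and a false discovery rate of 5% each called 11. For the effect in LE minus BV they called 11 and 12, and for LE minus GE 1 each.

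Leaving out 1 library gave 0 to 3 calls in LE, 3 to 6 in BV, 0 to 1 in GE and 0 in S. Leaving out 1 gilt gave 3 to 8 between BV and S, 0 to 4 for LE minus BV and 0 to 1 for LE minus GE. For these fits, and for the fit without the replicate block below, the share of all genes called is not given. Their counts are therefore a description. CGN in LE, at -0.18 with all libraries, lay between -0.45 and 0.01 and turned positive without CL78 (0.0103) and without PL39 (0.00230). Without the replicate block, that is with the pairing by gilt ignored, 40 genes were called between LE and S (39 of them shared), 39 between GE and S, 16 between LE and GE, 7 between BV and S, 3 for LE minus BV, and 0 for LE minus GE and for LE minus S, and the cause of these differences was not tested. Among single genes under all alternatives, 273 values kept their direction and side of the threshold, 54 passed it, 28 no longer passed and 4 turned sign.

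Depth limits the low genes: differences under the level of 3 counts per group could not be seen, and counting intervals exclude biological spread. With 4 gilts a group and 3 in pregnant GE, a difference that missed the threshold is not shown to be absent. With 1 library per gilt and compartment, technical spread was not measured.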
